A study of Mus musculus with 6 samples.

Results

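Of the 32285 genes counted in the single-cell libraries of mouse dorsal skin, 42 encode heat shock proteins and folding chaperones and were followed here. They were taken by symbol from the gene lists of the count matrices, where each of the 42 occurs exactly once. Of these, 29 act in the cytosol, 3 in mitochondria and 10 in the endoplasmic reticulum (ER). The cytosolic genes comprise 14 of the HSP70 system with its J-domain and exchange factors, 5 of the HSP90 system, 2 small heat shock proteins, the factor gene Hsf1 and 7 subunits of the chaperonin CCT. The cells came from male wildtype FVB mice aged p55 to p57 whose back skin had been shaved and waxed, a treatment that starts a new hair cycle in resting follicles. Skin was taken at 0 h and then after 4 h, 16 h and 2, 4 and 6 d, and whether the 0 h mice were waxed is not given in the labels. Equal numbers of cells from 2 mice went into the library of each time, so a time point is 1 library with no replicate of its own. All values are raw UMI (unique molecular identifier) counts at the 3′ ends of transcripts, summed over the cells of a type in a library and given as CPM, the count scaled to the sum of all UMIs of those cells. Levels of different genes are not compared as amounts of protein or transcript.

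Chaperones bind proteins that are not yet or no longer folded. HSP70 proteins hold short stretches of unfolded chains, J-domain proteins (the Dnaj genes) bring them their clients and start their ATPase, and HSP90 with co-chaperones such as Stip1 and Ahsa1 finishes the folding of kinases and receptors. Small heat shock proteins keep damaged proteins soluble, and CCT encloses actin, tubulin and other chains in a double ring. Hspd1 and Hspe1 form the corresponding cage of mitochondria, which Hspa9 supplies, and Hspa5 with Hsp90b1, the lectin chaperones Calr and Canx and the disulfide isomerases serves the ER. Heat and other protein damage raise a subset of the cytosolic genes through heat shock factor 1, whereas unfolded protein in the ER acts on the ER genes through separate factors.

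Recognised elements were sought in the promoters of these groups, and 4 windows are shown. In basal cells of the epidermis Hspe1 was above its 0 h level at 4 h, while Hspa1a, Hspa1b and Hspa5 were below theirs. RefSeq gave a window from 250 bases before to 50 bases after an annotated start (GRCm38.p6) for 35 of the 42 genes. It gave none for Cct4, Hsf1, Hsp90aa1, Hsp90ab1, Hspa13, Hspa8 and Hspa9. Both strands were searched. The heat shock element of 3 alternating units (GAANNTTCNNGAA or TTCNNGAANNTTC) occurred in 5 of the 35, Chordc1, Dnajb6, Hspd1, Hspe1 and Hsph1 (14.3%), against 0.662% of the 27025 genes with a window. Its 2-unit form (GAANNTTC or TTCNNGAA), which the longer form contains, was in 14 of 35 (40.0%) against 17.0% of all genes. The ER stress element, a CCAAT box followed after 9 bases by CCACG, was in 6 of the 9 ER genes with a window, namely Calr, Canx, Dnajc3, Hsp90b1, Hspa5 and Pdia6, and in 0.137% of all genes. A match to these letters is a description of the window and not evidence that a factor binds there. Capitals mark the 2-unit heat shock element of the stress-inducible pair Hspa1a and Hspa1b, the 2 overlapping 3-unit elements between Hspd1 and Hspe1, and the ER stress element of Hspa5. The windows lie at chr17:34972107-34972406 (minus strand), chr17:34959189-34959488 (minus strand), chr1:55087898-55088197 (plus strand) and chr2:34771840-34772139 (plus strand) and are written 5′ to 3′ on the strand of the gene.
Hspa1a: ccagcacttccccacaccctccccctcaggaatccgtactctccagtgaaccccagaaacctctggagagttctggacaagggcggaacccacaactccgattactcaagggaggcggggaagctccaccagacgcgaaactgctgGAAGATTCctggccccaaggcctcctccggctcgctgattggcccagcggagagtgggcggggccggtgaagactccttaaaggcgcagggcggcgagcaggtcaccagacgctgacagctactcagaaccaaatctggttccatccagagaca
Hspa1b: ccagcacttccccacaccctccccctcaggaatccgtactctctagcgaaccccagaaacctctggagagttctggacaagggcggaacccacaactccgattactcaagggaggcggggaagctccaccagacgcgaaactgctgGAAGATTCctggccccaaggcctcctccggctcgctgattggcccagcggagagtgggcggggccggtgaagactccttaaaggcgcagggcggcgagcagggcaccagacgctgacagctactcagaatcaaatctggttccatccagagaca
Hspe1: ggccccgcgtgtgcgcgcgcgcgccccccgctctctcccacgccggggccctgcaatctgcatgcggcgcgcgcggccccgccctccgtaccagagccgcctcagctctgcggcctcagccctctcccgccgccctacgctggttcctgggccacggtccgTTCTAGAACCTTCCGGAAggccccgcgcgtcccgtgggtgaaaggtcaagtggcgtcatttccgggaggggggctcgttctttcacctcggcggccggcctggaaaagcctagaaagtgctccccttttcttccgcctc
Hspa5: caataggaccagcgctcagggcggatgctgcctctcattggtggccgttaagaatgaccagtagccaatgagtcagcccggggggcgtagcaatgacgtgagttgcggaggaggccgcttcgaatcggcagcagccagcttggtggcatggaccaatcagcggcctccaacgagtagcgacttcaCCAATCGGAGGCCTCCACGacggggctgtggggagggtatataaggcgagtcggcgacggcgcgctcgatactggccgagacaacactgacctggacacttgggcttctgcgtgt
The windows of Hspa1a and Hspa1b were identical at 296 of 300 positions, and the element began 104 bases before the start in both. The near identity of this pair extends into the genes, so reads can be lost or split between them, and their sum is given beside the single values. Hspa8, Hsp90ab1, Hspe1 and some CCT genes have processed copies in the genome, and their counts carry the same uncertainty. The Hspe1 window overlaps that of Hspd1, which is read from the opposite strand, and its elements began 89 and 84 bases before the Hspe1 start. In the Hspa5 window the ER stress element began 65 bases before the start.

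The libraries held 72634390 to 112370376 UMIs in 7307 to 13878 barcodes, of which 6520 to 11032 were kept as cells with a median of 6032 to 10528 UMIs. Between 7 and 47 barcodes were shared by any 2 libraries, at most 0.465% of the smaller one. Cells were clustered without any gene of the lists used here and named from marker genes. Names follow the study: IFE.B and IFE.SB for basal and suprabasal interfollicular epidermis, uHF.B and uHF.SB for the upper hair follicle, and OB1 for the outer bulge. The suffix -like, which applies to all of them, is kept at first use. The IFE.B-like sums came from 2015 to 3372 cells per library, IFE.SB-like from 402 to 1362, uHF.B-like from 646 or more, uHF.SB-like from 265 or more, OB1-like from 312 or more and T-like from 214 or more. Every marker of these types was detected in its own type, which sums of this size make likely. The summed markers overlapped in level with other types for IFE.B, IFE.SB, uHF.B and OB1, and not for uHF.SB and T. For OB1 the lowest own sum was 3760 CPM and the highest of another type 8907 CPM. The 4 h library stood apart from the others across the whole transcriptome: in IFE.B-like cells 39.2% of the 7291 genes with a mean of at least 10 CPM were highest at 4 h and 33.4% were lowest there. A change of the level per cell and a change of the cells that carry a name cannot be told apart in such sums.

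In the basal epidermis the chaperone groups differed in direction at 4 h. The cytosolic chaperonin, the mitochondrial chaperones and the HSP90 co-chaperones were at their highest level of the 6 libraries. The 12 genes listed as heat-inducible were Hspa1a, Hspa1b, Hspa8, Hspa4l, Hsph1, Dnaja1, Dnajb1, Dnajb4, Bag3, Hsp90aa1, Chordc1 and Hspb1. Of these, 9 were below their 0 h level, with Dnaja1 and Hsp90aa1 close to it (log2 ratios -0.05 and -0.08). The share of all genes below 0 h was not counted. At their lowest were 5 of the 12, and 33.4% of all genes were lowest at 4 h. The list was drawn up with earlier results of these data known, and its counts depend on that choice. Hspd1, Hspe1 and Dnajb6 carry the 3-unit heat shock element, are not in the list and were above 0 h (2.44, 1.05 and 0.78). Of the 42 genes, 16 were at least 2-fold higher at 4 h than at 0 h, against 19.3% of all 7192 genes of sufficient level, and 8 were at least 2-fold lower, against 14.7% of all genes. The median log2 ratio of the 42 was 0.69 and that of all genes 0.17. At 4 h, 23 of the 42 had their highest level and 8 their lowest, against 39.2% and 33.4% of all genes, so the share at its lowest was below that of all genes. All these are comparisons of 1 library with 1 library and carry no test. The intervals that follow cover counting error only.

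All 7 CCT subunits were highest at 4 h in IFE.B-like cells. Their summed level was 1193, 2854, 1550.3, 1156, 1326 and 1198 CPM from 0 h to 6 d, a log2 ratio of 1.26 for 4 h against 0 h (95% counting interval 1.24 to 1.28). Cct3, a subunit of the ring, had 97.1, 384, 157, 104, 123 and 107 CPM in the order of time. Cct8 had 137, 449, 205, 149, 175 and 154 CPM. These were the subunits with the widest range, 3.96-fold and 3.28-fold, and the 4 h library was the high one in both. Cct2 and Cct4, the subunits with the most UMIs, were 2.09-fold and 2.07-fold higher at 4 h than at 0 h. The other subunits were 1.97-fold (Cct5), 2.38-fold (Cct7) and 2.08-fold (Tcp1) higher.

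The 3 mitochondrial chaperones behaved alike, with sums of 405, 1344, 668, 537, 411 and 396 CPM (log2 ratio 1.73, interval 1.70 to 1.76). Hspd1, the cage protein, had 116, 629, 226, 163, 130 and 130 CPM. Its counting intervals at 0 h (112 to 120 CPM) and 4 h (620 to 637 CPM) lay far apart. Its partner Hspe1, which shares the promoter printed above, had 195, 403, 304, 267, 188 and 167 CPM. The 4 h level was thus 5.43-fold that of 0 h for Hspd1 and 2.07-fold for Hspe1. Hspa9, the mitochondrial HSP70, was 3.31-fold higher, at 94.5 CPM before and 313 CPM at 4 h.

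Within the HSP90 system the co-chaperones had the larger ratios at 4 h. Ahsa1, which stimulates the HSP90 ATPase, had 35.8, 119, 61.8, 26.2, 46.7 and 44.6 CPM, and Stip1, which bridges HSP70 and HSP90, had 39.1, 103, 68.6, 45.0, 52.1 and 51.0 CPM. Both were highest at 4 h. Chordc1 was 2.50-fold higher at 4 h than at 0 h. The constitutive Hsp90ab1 stayed between 1723 and 2577 CPM over the 6 libraries. Hsp90aa1, its stress-responsive paralogue, had 828.8 CPM in the 0 h library and 431 CPM in the lowest, that of 2 d. Hsf1, the heat shock factor itself, ranged from 15.9 to 34.0 CPM with the highest value at 4 h.

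The HSP70 system held both patterns. Hspa8, the constitutive HSP70, varied 1.66-fold, from 1135 CPM at 2 d to 1883 at 4 h. Its exchange factors Hspa4 and Hsph1 were 2.97-fold and 3.23-fold higher at 4 h than at 0 h, and the J-domain partner Dnaja2 was 2.46-fold higher. The stress-inducible HSP70 genes went the other way. Hspa1a had 185, 34.4, 48.4, 43.0, 172 and 294 CPM and Hspa1b 129, 64.6, 94.8, 95.1, 169 and 279 CPM. For both, the libraries from 4 h to 2 d were the low ones and 6 d the high one. Together they had 314, 99.0, 143, 138, 341 and 572 CPM. Dnajb1, the J-domain partner induced with them, had 1182, 350, 577, 451, 1272 and 1204 CPM, so 4 h, 16 h and 2 d lay below the other 3 libraries. Hspa2, best known from male germ cells, had the widest range of the 42, from 41.9 CPM at 0 h to 1.79 at 4 h, and 32.6 at 6 d. Dnajb4 and Bag3, a co-chaperone of selective autophagy, were at 0.195 and 0.437 times their 0 h level at 4 h.

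Both small heat shock proteins were below their 0 h level from 4 h to 4 d. Hspb1, the major small heat shock protein of keratinocytes, had 2389, 1584, 465, 379, 1272 and 2402 CPM. Its lowest values were at 16 h and 2 d, and the 6 d level was 1.01 times that at 0 h. Hspb8, a partner of Bag3, had 136, 40.1, 71.6, 73.3, 65.1 and 63.3 CPM and stayed below its 0 h level. The 12 heat-inducible genes of the list together had 7116, 5328, 3970.5, 3066, 5289 and 7137 CPM, a log2 ratio of -0.42 at 4 h (interval -0.43 to -0.41). Their sum mixed opposite members, since Hspa8, Hsph1 and Chordc1 were above their 0 h level at 4 h.

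**Figure D1:**
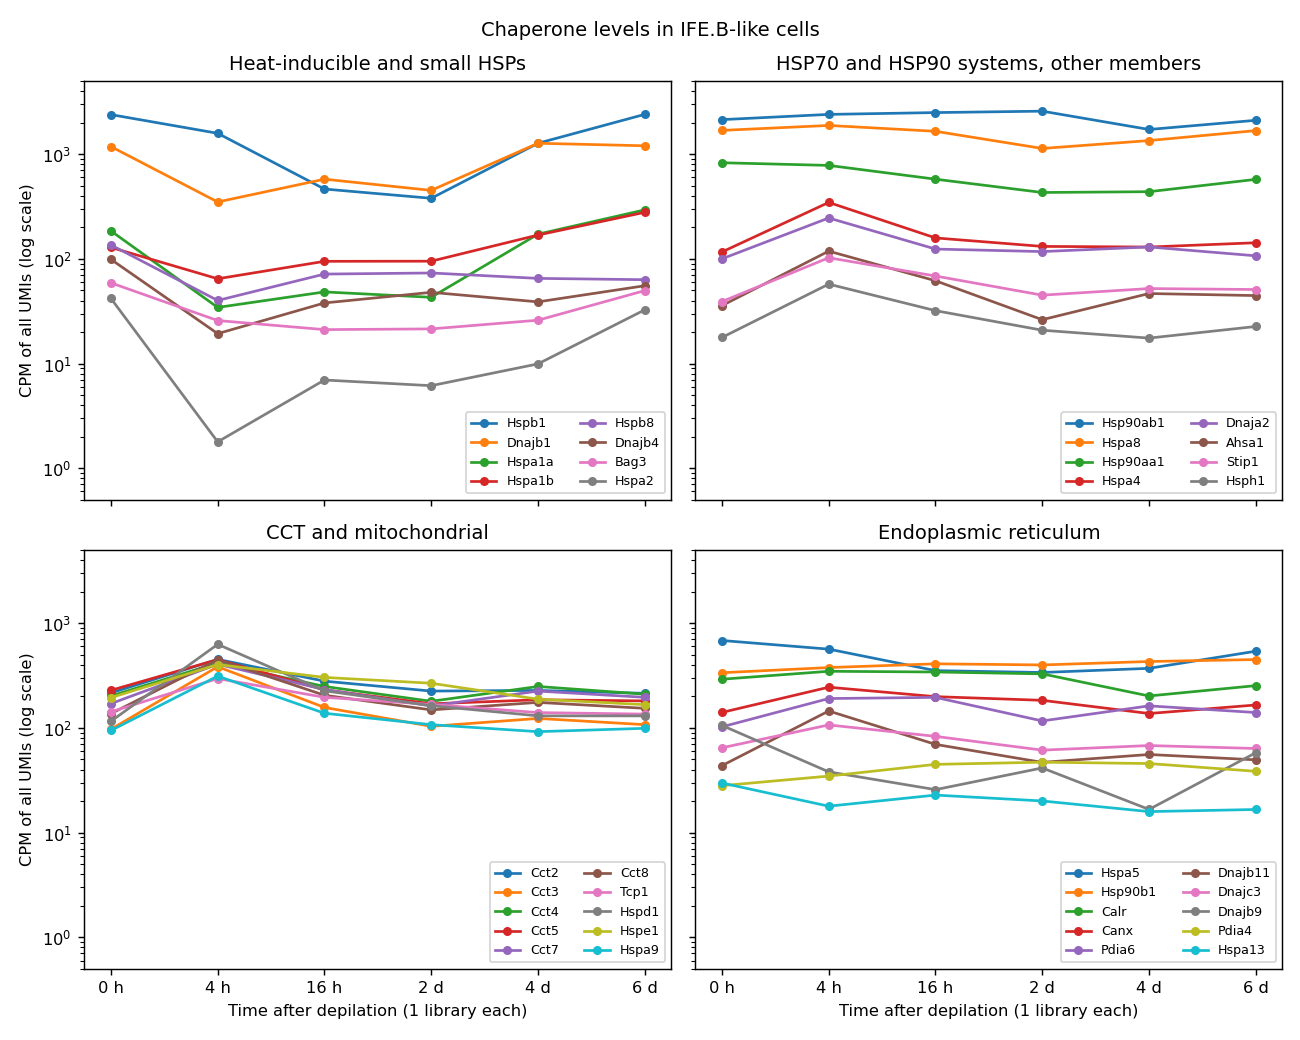
CPM (log axis) of 36 chaperone genes in IFE.B-like cells in the 6 libraries, 0 h to 6 d after depilation, 1 point per library joined by lines, with no replicates and so no error bars. CCT and mitochondrial genes peak at 4 h (Hspd1 at 629 CPM), where Hspa1a (34.4 CPM) and Hspa2 (1.79 CPM) are lowest.

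The ER chaperones gave no common pattern in IFE.B-like cells, and their sum differed by 1.37-fold between the highest and the lowest library (log2 ratio 0.18 at 4 h, interval 0.16 to 0.20). Hspa5, the ER HSP70, had 684, 566, 353, 338, 371 and 540.5 CPM, with 0 h the highest. Hsp90b1, its HSP90 counterpart, had 337 CPM at 0 h and 450.0 at 6 d. The J-domain genes of the ER were opposed: Dnajb11 had 43.7, 145, 69.6, 46.9, 55.7 and 49.6 CPM, while Dnajb9 had 106, 38.1, 25.7, 41.5, 16.7 and 57.9 CPM. Both act on Hspa5. Pdia6, a disulfide isomerase, was 1.86-fold higher at 4 h than at 0 h and Canx 1.74-fold.

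After 4 h fewer of the 42 genes were above 0 h, while the number below stayed similar until 2 d. At 16 h, 0 of the 42 genes were at least 2-fold above 0 h and 7 at least 2-fold below, against 4.31% and 4.41% of all genes. At 2 d the counts were 0 and 8 (1.5% and 4.43% of all genes), at 4 d 0 and 5 (1.8% and 3.65%) and at 6 d 1 and 1 (0.944% and 1.21%). The gene above 0 h at 6 d was Hspa1b, at 2.16 times its 0 h level, and the gene below was Hspb8, at 0.466 times. These comparisons share the 0 h library and are not independent of each other.

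The higher CCT and mitochondrial levels at 4 h were found in each of the 5 keratinocyte types compared. All 7 CCT genes and all 3 mitochondrial genes were above their 0 h level in IFE.B, IFE.SB, uHF.B, uHF.SB and OB1, with median log2 ratios of 0.91 to 1.15 for CCT and of 1.33 or more for the mitochondrial genes. At least 2-fold higher were 14 of 42 genes in IFE.SB (21.8% of all genes), 13 in uHF.B (21.1%), 12 in uHF.SB (19.7%) and 13 in OB1 (18.6%). At least 2-fold lower were 8 in IFE.SB (10.6%), 9 in uHF.B (15%), 7 in uHF.SB (11.6%) and 5 in OB1 (14.7%). In OB1 the count of lower genes was thus not above the share of all genes, and Hspb1, Hsp90aa1 (log2 ratio 0.64) and Dnaja1 (0.40) were higher there. In T-like cells 1 of 40 genes was higher (20.8% of all genes) and 9 were lower (6.49%). Their mitochondrial chaperones had 321 CPM at 0 h and 278 at 4 h, and their CCT sum 743 and 937. Whether T-like cells differ from keratinocytes in these ratios could likewise not be tested.

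**Figure D2:**
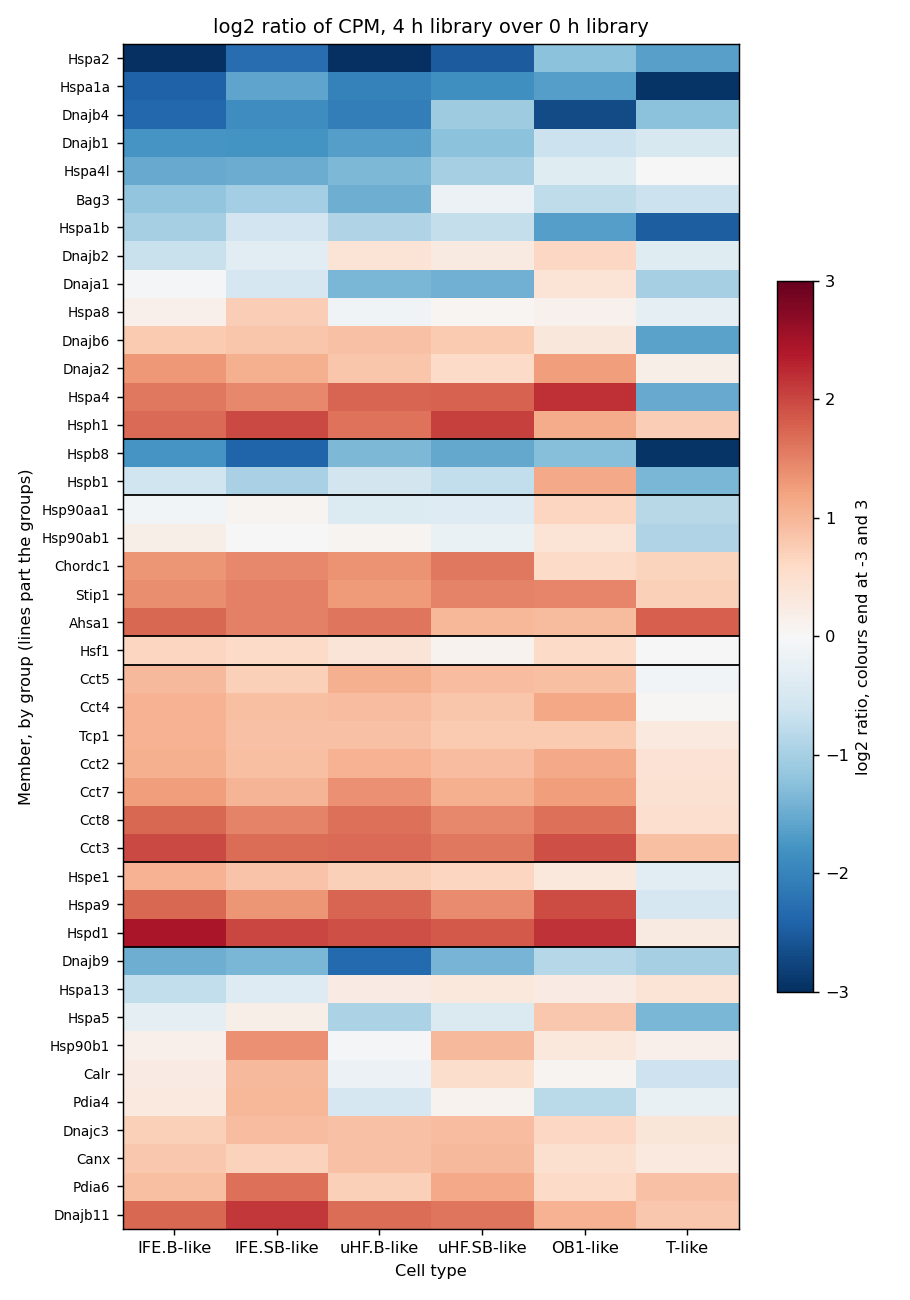
log2 ratio of CPM in the 4 h library over the 0 h library for the 42 genes (rows, ordered within their groups by the IFE.B-like value) in 6 cell types (columns), 1 library per time, with red above 0 h and blue below. CCT and mitochondrial rows are red in the 5 keratinocyte columns, Hspa1a, Hspa1b, Dnajb1 and Dnajb4 are blue in all 6, and the T-like column is paler in the CCT and mitochondrial rows.

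Immediate early genes, which respond to tissue handling within minutes, also differed between the libraries. Their summed level in IFE.B (12 genes) was 30213, 18269, 18286, 15959, 26045 and 18121 CPM in the order of time. In that type 3 of the 12 were at least 2-fold lower at 4 h (14.7% of all genes) and 0 at least 2-fold higher (19.3%). The median log2 ratio was -0.83. In uHF.B and OB1 8 of the 12 were at least 2-fold lower (15% and 14.7% of all genes). In IFE.SB and uHF.SB it was 2 (10.6% and 11.6% of all genes, medians -0.36 and -0.35) and in T 0 (6.49%, median -0.07). Their part in the levels of the inducible chaperones was not tested.

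OB1-like cells of the outer bulge, where hair follicle stem cells reside, had the highest mean level of Hspb1 among the 8 types plotted. Hspb1 had 5638, 12383, 3296, 647, 764 and 3249 CPM in the order of time. At 4 h it was thus above its 0 h level, at a log2 ratio of 1.14, and the same held for the other outer bulge types OB2-like and OB3-like, at 0.85 and 1.14 (61 to 114 cells in each of these 4 sums). In IFE.B, IFE.SB, uHF.B and uHF.SB the log2 ratio was -0.59, -0.98, -0.56 and -0.73. Whether the types differ in this ratio could not be tested with 1 library per time. Hspa1a and Hspa1b together had 607, 193, 320, 141, 692 and 1997 CPM in OB1, so the 6 d library exceeded all others. Hspb8 had 280 CPM at 0 h and 21.2 at 4 d. OB1 comprised 3 clusters whose shares differed between libraries. The cluster that held 84.0% of OB1 at 0 h held 34.3% at 4 h, and a cluster led by Cpa4 and Krt8 held 52.5% at 4 h and had no cell at 0 h. In that cluster 6 of the 12 OB1 markers were higher than in other cells, and 0 of the 12 were among its top 10 genes. The remaining cluster held 90.0% at 4 d. Within the first cluster Hspb1 was at 6309 CPM at 0 h (262 cells) and 17824 at 4 h (170 cells). Within the remaining one it was at 2695 CPM (50 cells) and 4450 (65 cells). The Cpa4-led cluster had 10786 CPM at 4 h. The part of the cluster shares in the OB1 levels was not tested. At 6 d Hspa1a was at 964.5 CPM in the cluster most common at 4 d and at 1410.1 in the cluster most common at 0 h.

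Higher levels of the inducible HSP70 genes at 6 d than at 4 h were common to the 8 types plotted. From 4 h to 6 d the sum of Hspa1a and Hspa1b went from 216 to 572 CPM in IFE.SB, from 129 to 680 in uHF.B, from 273 to 1134 in uHF.SB, from 7.95 to 91.8 in T, from 24.1 to 432 in Langerhans-like and from 37.4 to 1419 CPM in Melanocyte-like cells. The Melanocyte-like value at 4 h rests on few UMIs, since that sum held 87 cells, and the Langerhans-like sums rest on 42 to 259 cells. With 1 library per time, none of these differences has a replicate.

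**Figure D3:**
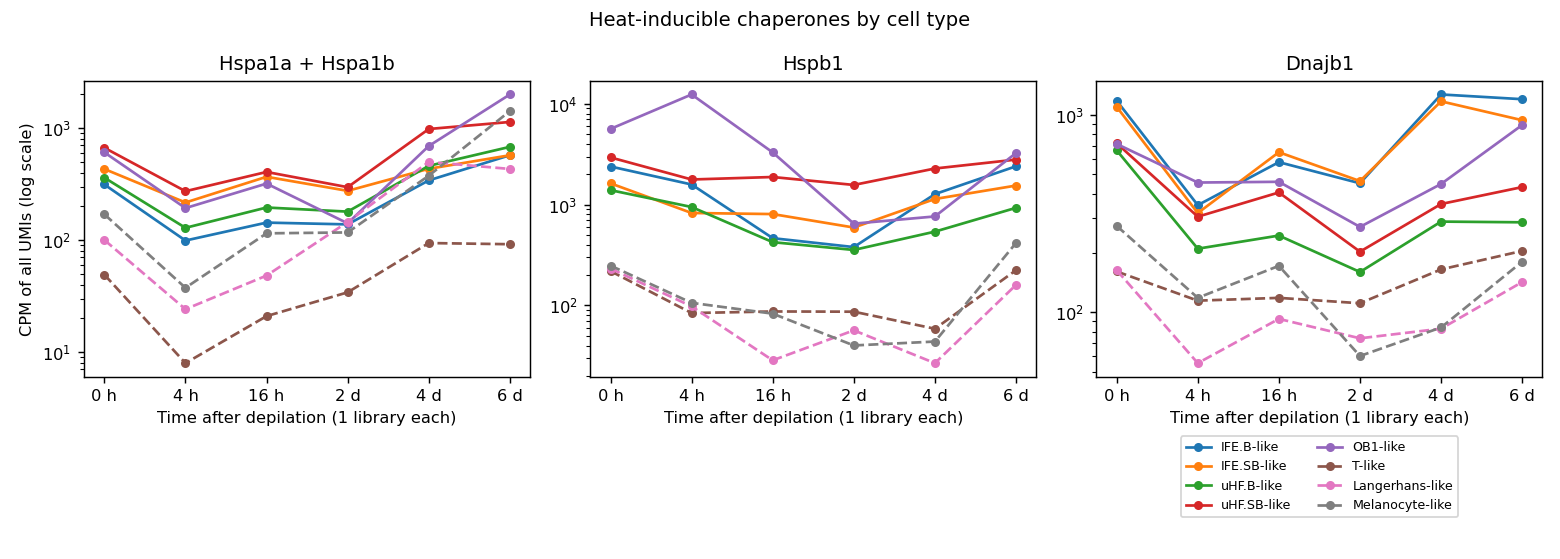
CPM (log axis) of Hspa1a plus Hspa1b, Hspb1 and Dnajb1 in the 6 libraries, with solid lines for keratinocyte types and dashed lines for T-, Langerhans- and Melanocyte-like cells, 1 point per library. Hspa1a plus Hspa1b are lowest at 4 h in 7 of the 8 types and reach 1997 CPM in OB1-like cells at 6 d, where Hspb1 peaks at 4 h (12383 CPM).

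A smooth time course could be tested over the 6 libraries. Hours entered the quasi-likelihood fit of edgeR as a spline with 3 terms, which left 2 degrees of freedom for the spread, and p-values were adjusted over all genes. In IFE.B 0 of 42 genes were called (0% of all genes), with 2 at an unadjusted p below 0.05, which were Hspb1 and Hspa1a. In IFE.SB 0 of 42 were called (0% of all) with 0 below the unadjusted limit, in uHF.B 0 (0%) with 1, in uHF.SB 0 (0%) with 3 and in T 0 of 41 (0.0385%) with 1. DESeq2 called 0 of the chaperones in these 5 types. In OB1 edgeR called 0 of 42 (0.408% of all genes), with 6 below the unadjusted limit, led by Hspb1 (adjusted p = 0.078), and DESeq2 called 4 (4.86% of all genes), which were Hspa1a, Hspa1b, Hspb1 and Hspb8. With time as log2(hours + 1) edgeR called 8 in OB1 (15.3% of all genes), among them the same 4. With 5 libraries the fit keeps 1 degree of freedom for the spread. Leaving out the 0 h library gave 11 calls in OB1 (20.6% of all genes), leaving out 4 h gave 7 (10.4%), leaving out 16 h gave 3 (2.63%) and leaving out 2 d gave 1 (2.51%). In T leaving out 0 h, 2 d or 6 d gave 4 calls and leaving out 4 h or 4 d gave 1, and in uHF.B leaving out 0 h gave 2. The shares of all genes in these fits of T and uHF.B were not counted, so their calls cannot be set against the transcriptome. Such a spline cannot follow a peak in a single early library, and an absence of calls in it says little.

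Cell types could be compared within libraries, each library serving as its own block in the edgeR quasi-likelihood fit, with adjusted p-values over all genes and 6 libraries in each comparison. The comparisons with IFE.B share the IFE.B sums, and counts of libraries refer to CPM. Suprabasal cells are keratinocytes that have left the basal layer and begun to differentiate. In IFE.SB against IFE.B, 9 of 42 genes were higher (28.5% of all genes) and 9 lower (28.2% of all). The median log2 change of the 42 was 0.02 and that of all genes 0.01. Inducible HSP70 genes were among the higher ones. Hspa1b had 225 ± 56.5 CPM in IFE.SB and 138 ± 77.3 in IFE.B (mean ± SD over 6 libraries) and rose by 0.97 on the log2 scale (SE 0.13, adjusted p = 0.000142), being higher in 6 of 6 libraries. Hspa2 rose by 1.55 (SE 0.25, adjusted p = 0.00049), Hspa1a by 0.72 (SE 0.18) and Dnajb2 by 0.56 (SE 0.07). Bag3 showed the reverse, with 14.7 CPM in IFE.SB and 33.8 in IFE.B, a log2 change of -1.02 (SE 0.06, adjusted p = 1.61e-06) that was lower in 6 of 6 libraries. Hsp90b1 fell by 0.75, Dnaja1 by 0.63, Pdia6 by 0.57 and Hsp90aa1 by 0.50. The small heat shock proteins were not called, with log2 changes of -0.00496 for Hspb1 (SE 0.23) and 0.12 for Hspb8 (SE 0.12). Without the 4 h library 14 genes were higher and 12 lower, and the shares of all genes in that fit were not counted.

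The same step was compared in the upper hair follicle. In uHF.SB against uHF.B, 11 of 42 were higher (29.2% of all genes) and 17 lower (31.2% of all), with a median log2 change of -0.07 against -0.02 for all genes. Hspb1 rose by 1.82 (SE 0.19, adjusted p = 1.61e-05), from 765 to 2207 CPM, in 6 of 6 libraries. Hspb8 rose by 1.38 and Hspa2 by 1.74. Hspa1b, with 158 CPM in uHF.B and 304 in uHF.SB, rose by 1.12 (SE 0.07), and Hspa1a by 1.06 (SE 0.07). All 7 CCT genes and all 3 mitochondrial genes were lower, with medians of -0.32 and -0.57. Hspe1 fell by 0.75 (SE 0.08, adjusted p = 1.82e-05) and Cct4 by 0.64. Hsp90aa1 fell by 0.85, Hspa8 by 0.60 and Pdia6 by 0.60. The 10 cycling markers also fell in both comparisons, with medians of -3.37 in the epidermis and -3.40 in the follicle, and their part in the lower chaperonin levels was not tested.

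The 2 differentiation steps were then set against each other in 1 fit, a test chosen after both results were known. The change in the follicle exceeded that in the epidermis for 3 of 42 genes (7.71% of all genes), namely Hspb1, Hspb8 and Dnajc3, and was below it for 9 (6.05% of all). The 9 were all 3 mitochondrial chaperones and the CCT subunits Cct2, Cct3, Cct4, Cct5, Cct8 and Tcp1. For Hspb1 the difference was 1.89 (SE 0.31, adjusted p = 0.000681) and for Hspd1 -0.75 (SE 0.16, adjusted p = 0.00486), with changes of -0.57 in the follicle and 0.19 in the epidermis. Without 16 h, without 4 d or without 6 d 5 genes were below, and without 4 d 1 was above. For these fits the shares of all genes were not counted.

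**Figure D4:**
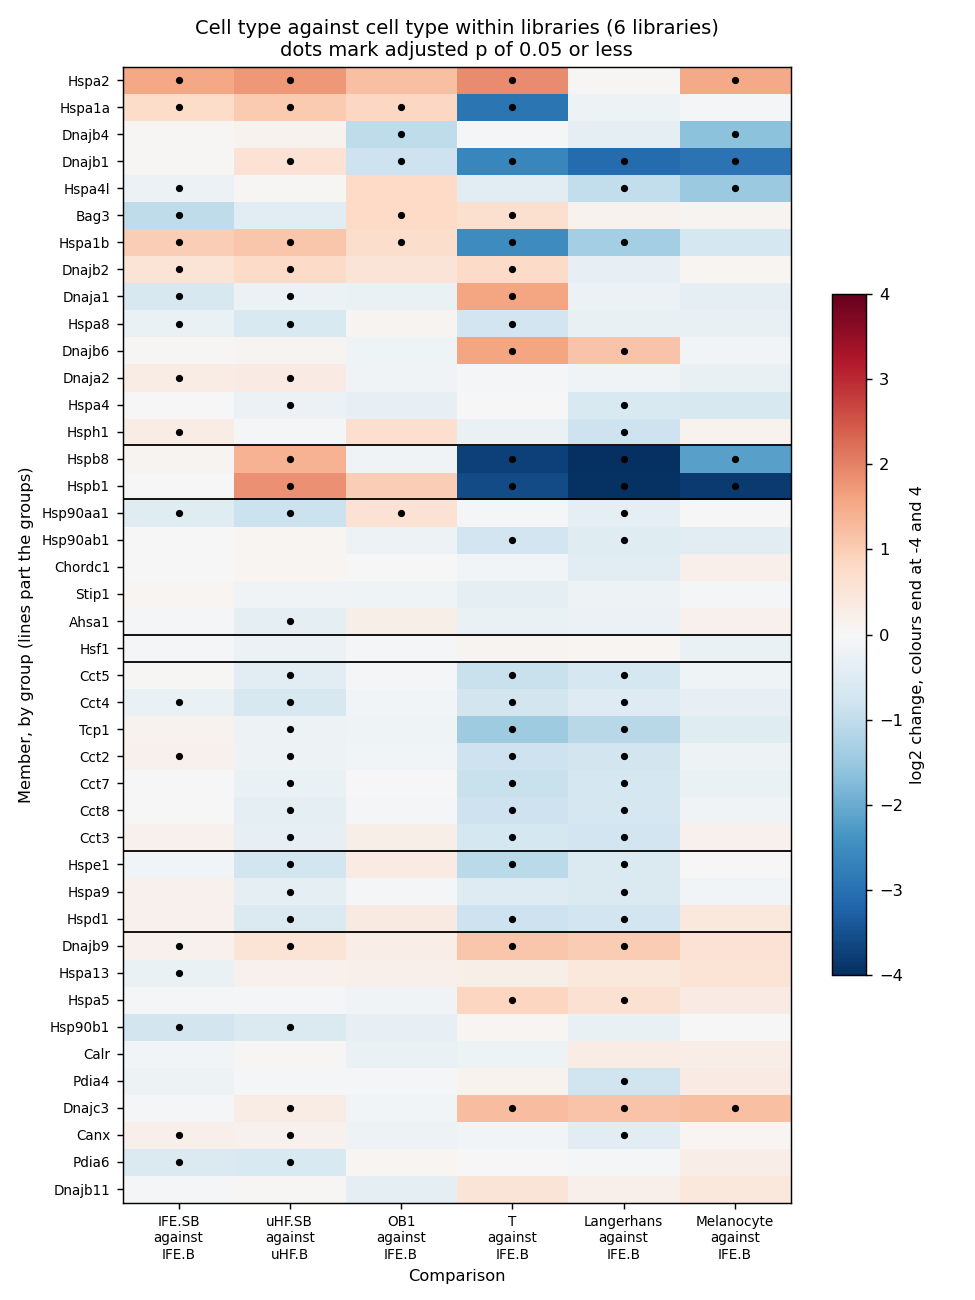
log2 change of the 42 genes (rows, by group) in 6 comparisons of cell types within 6 libraries (columns), edgeR quasi-likelihood fit with the library as block, dots where the adjusted p is 0.05 or less. Hspb1, Hspb8 and Dnajb1 are far lower in T-, Langerhans- and Melanocyte-like cells than in IFE.B-like cells (Hspb1 by -3.59, -3.96 and -3.82), and the CCT rows are lower in the T- and Langerhans-like columns.

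Outer bulge cells were compared with basal epidermis within libraries. In OB1 against IFE.B, 4 of 42 were higher (15.1% of all genes) and 2 lower (16.4% of all), with medians of -0.06 for the 42 and -0.03 for all genes. Hspa1a rose by 0.83 (SE 0.23, edgeR adjusted p = 0.026), Bag3 by 0.79 (SE 0.19), Hspa1b by 0.71 (SE 0.23) and Hsp90aa1 by 0.56 (SE 0.12). Each had a higher CPM in 6 of 6 libraries, but at 2 d the log2 ratio of CPM was only 0.081 for Hspa1a and 0.0079 for Hspa1b. Dnajb4 fell by 1.01 and Dnajb1 by 0.81. Hspb1, at 4329 ± 4361 CPM in OB1 and 1415 ± 889 in IFE.B, had a log2 change of 0.99 (SE 0.52, adjusted p = 0.19) and was higher in 5 of 6 libraries. Without the library as block edgeR called 0 of the 42 in either direction, with Hspa1a at a log2 change of 1.04 (adjusted p = 0.373). Without the 16 h library 1 gene was higher and without 6 d 2 were. Lower was 1 gene without 0 h, 16 h, 2 d, 4 d or 6 d, and 2 without 4 h. Shares of all genes in these alternative fits were not counted.

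T-, Langerhans- and Melanocyte-like cells were each set against IFE.B-like cells. In T-like against IFE.B-like cells, 8 of 42 were higher (28% of all genes) and 16 lower (32.2% of all), with medians of -0.23 and -0.11 for the 42 and for all genes. In Langerhans-like cells 4 were higher (22.1% of all) and 21 lower (30.1% of all), with medians of -0.40 and -0.17. In Melanocyte-like cells 2 were higher (14.8% of all) and 5 lower (20% of all), with medians of -0.05 and -0.03. Without 2 d 8 genes were lower in Melanocyte, and without 0 h or without 16 h 1 was higher, with the shares of all genes not counted. The genes that were higher included members of the ER group. Dnajc3, an ER-resident J-domain protein, rose by 1.25 in T, by 1.14 in Langerhans and by 1.22 in Melanocyte. Hspa5 rose by 0.87 in T and by 0.62 in Langerhans, and Dnajb9 by 1.10 and 1.01. Dnaja1 had 1525 CPM in T and 425 in IFE.B, a log2 change of 1.57 (SE 0.18, adjusted p = 8.61e-06), and Dnajb6, a J-domain protein that prevents aggregation, rose by 1.59 in T and by 1.12 in Langerhans. Hspa2 rose by 1.89 in T and by 1.52 in Melanocyte. In T, Dnajb6 was at 1195 CPM at 0 h and at 248 to 624.9 CPM in the other libraries.

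The small heat shock proteins and Dnajb1 were lower in all 3 of these types. Hspb1 had 127 ± 74.3 CPM in T, 100 ± 81.7 in Langerhans and 156 ± 149 in Melanocyte, against 1415 ± 889 in IFE.B, log2 changes of -3.59 (SE 0.31), -3.96 (SE 0.27) and -3.82 (SE 0.30). Adjusted p-values were 5.48e-07, 1.11e-08 and 1.88e-09, and all 6 libraries showed the direction in each type. Dnajb1 fell by 2.62, 3.07 and 2.96, and Hspb8 by 3.74, 4.10 and 2.18. Hspa1a fell by 2.92 in T but was not called in Langerhans (-0.20, SE 0.32) or Melanocyte (-0.06, SE 0.32). Transcripts of keratinocytes were also present in these sums. Krt5 and Krt14, keratins of basal keratinocytes, were at a median of 2.48% and 2.48% of their IFE.B level in T and at 2.50% and 2.79% in Langerhans. Hspb1 was at 9.25% and 6.42% and Dnajb1 at 18.8% and 14.8%. In Melanocyte Krt5 was at 3.002% and reached 15.3% in 1 library. The share of the low Hspb1 values that free RNA or attached keratinocytes supply was not tested. All 7 CCT genes were lower in T (median -0.82) and in Langerhans (median -0.69), and 0 of 7 were called in Melanocyte. Tcp1 fell by 1.42 in T and by 1.10 in Langerhans. Of the mitochondrial genes 2 of 3 were lower in T, 3 of 3 in Langerhans and 0 in Melanocyte.

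Proliferation was examined within 3 types by setting cycling cells against non-cycling cells of the same library. A cell counted as cycling with at least 2 UMIs of 10 cycling markers after every cell was thinned to 2000 UMIs. Such cells made up 7.54% of IFE.B at 4 h and 21.5% to 32.4% in the other libraries, 8.28% to 45.6% of uHF.B and 2.42% to 51.6% of OB1. At 4 h 11 OB1 cells were cycling and at 0 h 22. Cycling IFE.B cells were also deeper, with a median of 6860.5 to 13979.5 UMIs against 6017.5 to 10337.5 in non-cycling cells. In OB1 the medians were 11248 against 5561 at 2 d and 7340 against 5409 at 4 d, and at 0 h 5186.5 against 5681.5. The part of depth in these comparisons was not tested. In IFE.B 9 of 42 genes were higher in cycling cells (19.2% of all genes) and 11 lower (26.7% of all), in uHF.B 6 (14.8%) and 11 (20.8%), and in OB1 3 (9.51%) and 9 (10.9%). Medians of the 42 were -0.04, -0.04 and 0.05, and those of all genes -0.06, -0.06 and -0.03.

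Hsp90b1 was higher in cycling cells of all 3 types. In IFE.B it had 627 CPM in cycling and 295 in non-cycling cells, a log2 change of 0.98 (SE 0.14, edgeR adjusted p = 4.96e-05). The changes were 0.84 (SE 0.09) in uHF.B and 0.48 (SE 0.15) in OB1. The IFE.B ratio was not uniform, with a log2 value of -0.0023 at 4 h and 0.92 to 1.62 in the other libraries. Stip1 rose by 0.47, 0.30 and 0.55 in the 3 types. Dnajb11, Ahsa1 and Tcp1 rose in IFE.B (0.35, 0.27 and 0.28) and in uHF.B (0.26, 0.27 and 0.24). In OB1 their changes of 0.345, 0.20 and 0.37 were not called, and a difference between the types was not tested. Tcp1 was the only CCT gene called higher. Of the 7 CCT genes 3 were lower in cycling IFE.B (median -0.08) and 2 in uHF.B (median -0.10), and 0 were called in OB1. Hspa4l rose in IFE.B (0.30) and uHF.B (0.28) and fell by 0.52 in OB1. Hspd1 rose by 0.41 in OB1.

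Of the 12 heat-inducible genes 3 were lower and 2 higher in cycling IFE.B, 4 and 1 in uHF.B, and 5 and 0 in OB1. Of all genes 26.7% were lower and 19.2% higher in IFE.B, 20.8% and 14.8% in uHF.B, and 10.9% and 9.51% in OB1. Hspb1 fell by 0.63 in IFE.B (SE 0.06, adjusted p = 8.48e-07), by 0.60 in uHF.B (SE 0.05, adjusted p = 1.79e-09) and by 1.29 in OB1 (SE 0.15, adjusted p = 6.57e-07), in 6 of 6 libraries of each. In OB1 it had 2318 CPM in cycling and 4665 in non-cycling cells. The clusters within OB1 differed in Hspb1, and cycling and non-cycling cells were not matched by cluster. At 4 d Hspb1 was at 617 CPM in the cluster most common then and at 3220 in that most common at 0 h. The part of the clusters in the OB1 changes was not tested. Dnajb1 fell by 0.54, 0.58 and 0.65, and the ER gene Dnajb9 by 0.45, 0.63 and 0.57. Hspa1a fell by 0.79 and Hspa1b by 0.70 in OB1. Of the immediate early genes 5 of 12 were lower in cycling IFE.B, 11 of 12 in uHF.B and 9 of 12 in OB1, and their part was not tested. Their median log2 change in IFE.B was -0.07, near the -0.06 of all genes. Among the constitutive genes Hsp90ab1 fell by 0.26 in IFE.B and 0.21 in uHF.B. Without the 4 h library 12 genes were higher in cycling uHF.B in place of 6, and 7 in cycling OB1 in place of 3. In OB1 0 genes were higher without 2 d, without 4 d or without 6 d. In uHF.B 6 genes were lower without 6 d, and in OB1 6 without 2 d or without 6 d. The shares of all genes in these fits with a library left out were not counted, so their counts cannot be set against the transcriptome.

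**Figure D5:**
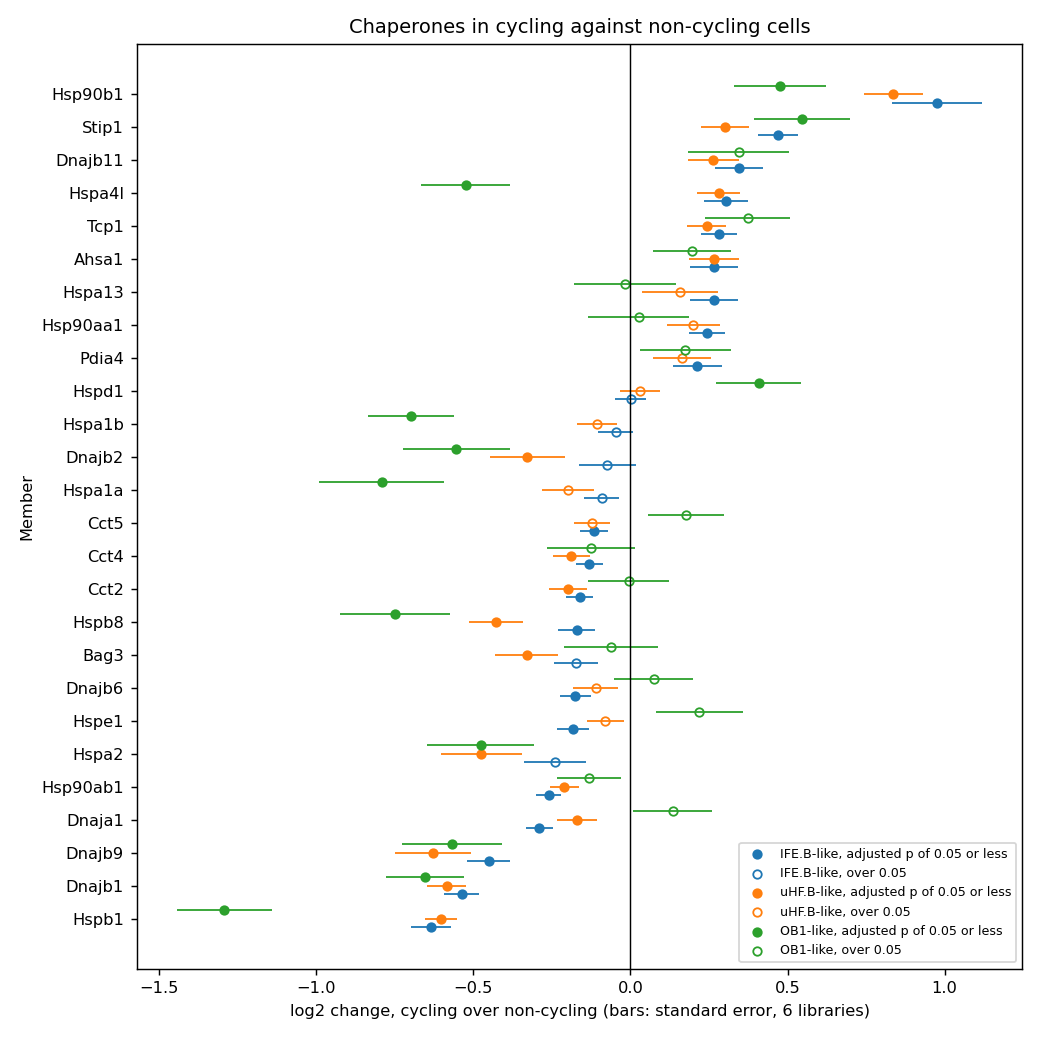
log2 change with its standard error (bars) between cycling and non-cycling cells for the chaperones called in at least 1 of 3 types (IFE.B, uHF.B and OB1-like, 6 libraries each), filled points where the adjusted p of the edgeR fit is 0.05 or less. Hsp90b1 (0.98, 0.84 and 0.48) and Stip1 lie to the right in all 3 types, and Hspb1 (-0.63, -0.60 and -1.29), Dnajb1 and Dnajb9 to the left.

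Chaperones outside the 42 were counted in the same way at 4 h in IFE.B, and the genes named were picked after their values were seen. Of all genes 19.3% were at least 2-fold higher and 14.7% at least 2-fold lower, with a median log2 ratio of 0.17. Of 8 other mitochondrial folding and protease genes 4 were at least 2-fold higher than at 0 h and 0 lower (median log2 ratio 1.02), with Grpel1, the exchange factor of Hspa9, going from 70.3 to 286 CPM. Of 19 other cytosolic genes at a mean of 10 CPM or more, 9 were higher and 1 lower (median 0.83). These included Cct6a, a further CCT subunit, at 4.19-fold, the HSP90 co-chaperone Ptges3 at 3.34-fold and the HSP70 exchange factor gene Hspbp1 at 4.44-fold. Of 20 other ER genes 6 were higher and 2 lower (median 0.60), with Hyou1 at 4.36-fold, Creld2 at 3.91-fold and Manf at 3.03-fold. In cycling IFE.B cells 10 of 23 other cytosolic, 3 of 8 other mitochondrial and 4 of 22 other ER genes were higher, against 19.2% of all genes, and 2, 0 and 2 were lower, against 26.7%.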

How the data were processed

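Single-cell 3′ libraries were made from dorsal skin at 6 times, 1 library each from 2 mixed mice. The authors deposited raw UMI counts per gene and barcode, made with Cell Ranger 6.1.2 on mm10 per the submitters' processing notes. Which annotation was used, and whether intronic reads counted, is not given in the sources used here, and reads that match several genes can be lost from near-identical genes such as Hspa1a and Hspa1b. Only the deposited counts were analysed.

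Barcodes with 500 to 7000 genes and at most 10% mitochondrial UMIs were kept. The top-scoring barcodes of Scrublet (scanpy 1.11.5) at 0.8% per 1000 barcodes were removed as doublets. Cells were clustered with Seurat 5.3.0 without 550 genes, 120 of them in the gene lists and 430 correlated with cycling markers above 0.2, and named from marker lists. Counts were summed per type and library where at least 20 cells (10 for cycling cells) were present. Tests used edgeR 4.0.16 (quasi-likelihood, TMM scaling, R 4.3.3), with Benjamini-Hochberg adjustment over all genes and a threshold of 0.05. DESeq2 1.42.0 was an alternative, as were other scaling, filters, time scales, doublets kept, all barcodes, no library block and leaving out each library. The scripts were tested on simulated data, where the time course test recovered changed genes at a low spread and not at that of the libraries. Intervals are exact Poisson or counting intervals at 95% and cover counting error only. Fold counts between 2 libraries used genes with a mean of at least 10 CPM and a 2-fold limit.

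The genes and lists were chosen with earlier results of these data known. Named genes were, in each group, the 2 with the highest mean and the 2 with the widest range in IFE.B and the 5 with the largest called change in each direction of a comparison, with Hspa1b always beside Hspa1a, and any other gene named was picked after its values were seen. P-values of the comparisons measure how much the difference within a library varied over these 6 libraries, each of another time. They do not measure a spread between replicates of a time. The 6 libraries held 72634390 to 112370376 UMIs.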

Additional observations from a re-analysis of the deposited data

Results flagged for a closer look

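The step from basal to suprabasal cells differed between the upper follicle and the epidermis for 12 chaperone genes by an interaction test in edgeR (adjusted p of 0.05 or less, 6 libraries). The test was chosen after both results were known, and 7.71% of all genes were called above and 6.05% below, so the 3 chaperones above were not more than the share of all genes. Without 16 h, without 4 d or without 6 d the 9 below became 5, and without 4 d the 3 above became 1. For these fits the shares of all genes were not counted. The difference in log2 change, follicle minus epidermis, was 1.89 for Hspb1, 1.19 for Hspb8 and 0.37 for Dnajc3. It was -0.75 for Hspd1, -0.64 for Hspe1 and -0.54 for Hspa9 among the mitochondrial genes. For the CCT subunits it was -0.47 for Cct3, -0.46 for Cct5, -0.42 for Cct8, -0.37 for Cct2, -0.35 for Cct4 and -0.32 for Tcp1.

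Of 79 named gene results given Dixon's test over their 6 libraries, 11 had 1 library apart from the others, and chance alone picks out about 1 in 20. In 10 of the 11 it was the 4 h library. Its log2 ratio of IFE.SB over IFE.B was 0.12 for Hsp90b1 and -0.054 for Pdia6. In Langerhans against IFE.B it was -1.75 for Tcp1, and in Melanocyte against IFE.B 2.11 for Hspa4l. In cycling against non-cycling IFE.B it was 0.23 for Stip1 and 0.063 for Tcp1. In cycling against non-cycling uHF.B it was 0.0010 for Stip1, -0.15 for Dnajb11, 0.47 for Hspa2 and -1.20 for Hspb8. The 4 d library was apart for Dnajb1 in Langerhans against IFE.B, at -3.94.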

How the results depend on the processing

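With 1 library per time the differences between times have no replicate. No paired analysis was possible because each time point has 1 library, so the time course has no pairs. Summed over all deposited barcodes, so over every cell type, the log2 ratio of 4 h over 0 h was -0.38 for the heat-inducible genes. It was 1.18 for CCT, 1.62 for the mitochondrial and 0.39 for the ER genes. In IFE.B the heat-inducible genes had a ratio of -0.43 without mitochondrially encoded UMIs in the total. In OB1 the time course called 8 genes with time as log2(hours + 1), 5 with time as rank, 1 without a filter and 4 with DESeq2, against 0, and in T 1 without a filter. Leaving out single libraries gave 0 to 11 calls in OB1, 0 to 4 in T, 0 to 2 in uHF.B and 0 to 0 in IFE.B, IFE.SB and uHF.SB. For T and uHF.B the shares of all genes in these fits were not counted.

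Without the library as a replicate block, calls (higher and lower) were 1 and 3 in IFE.SB, 3 and 3 in uHF.SB, 0 and 0 in OB1, 2 and 12 in Langerhans, 1 and 0 in cycling IFE.B, 1 and 0 in cycling uHF.B and 0 and 0 in cycling OB1, with 5 higher in T and 1 higher in Melanocyte. In Melanocyte 8 were lower with RLE size factors, 10 without a filter, 9 with DESeq2 and 10 with doublets kept, and 1 was higher with DESeq2 and 1 with doublets kept. In cycling uHF.B DESeq2 called 7 lower, and in cycling OB1 5 lower, where RLE called 5 higher. Leaving out single libraries gave, higher then lower, 6 to 14 and 7 to 12 in IFE.SB, 10 to 11 and 17 to 18 in uHF.SB, 1 to 5 and 1 to 2 in OB1, 6 to 8 and 15 to 17 in T, 4 to 4 and 15 to 19 in Langerhans, 1 to 3 and 5 to 8 in Melanocyte, 7 to 12 and 8 to 13 in cycling IFE.B, 4 to 12 and 6 to 10 in cycling uHF.B, 0 to 7 and 6 to 9 in cycling OB1, and 1 to 4 and 5 to 10 in the difference between follicle and epidermis. Of 932 alternative values for 80 named gene results, 839 kept direction and call, 93 were no longer past the threshold (50 of them without the block) and 0 reversed. The causes of these changes were not tested, and the shares of all genes in the alternative fits of this paragraph were not counted.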
